A study of Mus musculus with 15 samples.

Results

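The 10 genes described here encode receptors, junction proteins and surface proteins of endothelial cells, namely Kdr, Flt1, Flt4, Nrp1, Tek, Tie1, Eng, Pecam1, Cdh5 and Cd34. A peak of the histone mark H3K27ac was counted for a gene when it overlapped the RefSeq span of the gene in the mouse genome mm10 or the 50 kb on either side. By this rule 158 of the 122375 peaks in the list belonged to the 10 genes. Each was placed at the promoter (within 2 kb of a start site of the gene), in the gene body, or in the flank.

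The tumors were fusion-positive rhabdomyosarcoma (FP-RMS), a sarcoma with features of developing muscle in which the transcription factor fusion P3F (PAX3-FOXO1) is the driver. The list came from an MCP tumor, whose mouse carried Myf6-Cre together with Cdkn2a(Flox/Flox), the P3F allele Pax(3P3F/P3F) and the reporter R26-tdTom, so that Cre from Myf6 acts in myogenic cells, where it switches on P3F, deletes Cdkn2a and lights up tdTomato. The other model, TCP, has the same alleles with Tek-Cre in place of Myf6-Cre, and there regulatory sequence of Tek, which is among the 10 genes, drives Cre in endothelial cells and in blood cells. The series held 6 MCP and 3 TCP H3K27ac libraries and 3 IgG libraries of each model, all made by CUT&RUN, which releases the DNA beside an antibody with a tethered nuclease. The list used here belonged to MCP H3K27ac replicate 5. All others were not used here, which left no comparison of the models and no test between groups, and no value below has a replicate error. The age of the mouse and the number of animals behind the library were not given in the sources used here. The nuclei came from sorted live cells of a dissociated tumor, so fewer cells carrying the mark and less mark per cell cannot be told apart.

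Acetylation of histone H3 at lysine 27 is found at promoters and enhancers in use. The vascular endothelial growth factor (VEGF) receptors Kdr, Flt1 and Flt4 and their co-receptor Nrp1 control the growth of blood and lymph vessels, the angiopoietin receptor Tek and its partner Tie1 steady mature vessels, and Eng is a co-receptor for ligands of the TGF-beta and BMP family. Cdh5 (VE-cadherin) and Pecam1 (CD31) join endothelial cells to each other, and Cd34 is a surface sialomucin of vessels and of blood stem cells. Several of these genes are also used outside endothelium, such as Nrp1 in neurons and Cd34 in quiescent muscle stem cells and fibroblasts.

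The caller gave each peak a fold enrichment over the local background, and the number of fragments over the summit was recovered from the fold and the p-value. Over the whole list the median peak had a fold of 5.22, a width of 163 bp and 13 fragments (quartiles 10 and 17). The fewest fragments over a called summit were 7. Because the list holds only regions past a threshold, a gene without a peak is one where no enrichment was called at this depth, and absence of the mark was not shown. The study takes MCP tumors to be of myogenic origin, by their Myf6-Cre driver. Of the 12 myogenic marker genes, only Myf6 had a promoter peak, with a fold of 5.97. Flank peaks were counted at Myf6 (35), Myf5 (29), Chrna1 (17), Des (15), Ttn (14), Myod1 (11), Acta1 (10) and Cdh15 (7). Myf5 and Myf6 are neighbors on chromosome 10, so their flanks overlap and the same peaks can count for both. Mef2c had 1 gene body peak, and Myog, Pax7 and Mymk had no peak within 50 kb. A promoter peak was found at 1 of 8 leukocyte markers (Cd68), at 2 of 8 fibroblast markers (Pdgfra and Col3a1) and at 0 of 8 pericyte and smooth muscle markers (Wilson 95% interval up to 32.4%). Des is in the pericyte and smooth muscle list as well as the myogenic list. Flank peaks lay near markers of these lists too, such as 32 at Cspg4, 22 at Cd68 and 19 at Col3a1. Over all 21000 protein-coding genes the share with a promoter peak was 45.6%. The share with a peak in the gene or within 50 kb was 77.9%, so flank peaks near a marker are common.

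Sequences of 200 bases about the summit are shown first for the peaks on which the results turn, which are the strongest gene body peaks of Tek, Nrp1, Pecam1, Cdh5 and Cd34, the strongest promoter peak of Eng, and the strongest peak near any of the 10 genes, Cdh5 peak 11 (mm10, + strand of the genome). Peaks of a gene are numbered along the chromosome. Capitals mark matches on either strand to a motif that was searched. The letters searched were AGGAAG for ETS factors, AGATAA for factors of the GATA family, CAGCTG for a MYOD1-type E-box, TGANTCA for AP-1, TGTTTAC for forkhead factors, ACAAAG for SOX factors, GGGCGG for KLF/SP factors and inverted TAAT cores spaced by 3 bases for a PAX homeodomain dimer.
Tek peak 8 (chr4:94758399-94758598, + strand): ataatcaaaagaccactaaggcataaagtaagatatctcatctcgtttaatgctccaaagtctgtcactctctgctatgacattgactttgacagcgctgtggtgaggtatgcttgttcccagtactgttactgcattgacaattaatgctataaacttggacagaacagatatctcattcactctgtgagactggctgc
Nrp1 peak 11 (chr8:128417444-128417643, + strand): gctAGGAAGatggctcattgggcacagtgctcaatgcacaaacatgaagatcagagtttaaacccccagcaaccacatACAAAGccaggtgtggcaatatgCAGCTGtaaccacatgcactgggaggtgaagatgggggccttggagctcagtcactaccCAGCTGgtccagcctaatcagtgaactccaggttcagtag
Eng peak 12 (chr2:32647258-32647457, + strand): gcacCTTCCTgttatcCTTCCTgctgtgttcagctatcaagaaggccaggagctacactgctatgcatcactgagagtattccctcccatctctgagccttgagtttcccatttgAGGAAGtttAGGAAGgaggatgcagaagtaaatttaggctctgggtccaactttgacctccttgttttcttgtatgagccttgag
Pecam1 peak 5 (chr11:106674404-106674603, + strand): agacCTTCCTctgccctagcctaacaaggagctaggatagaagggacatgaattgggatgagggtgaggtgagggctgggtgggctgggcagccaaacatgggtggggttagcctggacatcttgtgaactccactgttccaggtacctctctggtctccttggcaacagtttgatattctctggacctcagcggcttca
Cdh5 peak 4 (chr8:104110642-104110841, + strand): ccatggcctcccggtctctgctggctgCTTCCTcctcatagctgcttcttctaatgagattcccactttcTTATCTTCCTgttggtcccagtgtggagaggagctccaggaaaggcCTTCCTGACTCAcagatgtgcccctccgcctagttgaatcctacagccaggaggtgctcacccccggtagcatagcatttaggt
Cd34 peak 8 (chr1:194944617-194944816, + strand): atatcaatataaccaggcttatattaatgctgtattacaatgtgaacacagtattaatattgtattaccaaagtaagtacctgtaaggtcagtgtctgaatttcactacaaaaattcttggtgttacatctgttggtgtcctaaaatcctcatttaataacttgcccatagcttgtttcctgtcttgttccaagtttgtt
Cdh5 peak 11 (chr8:104191851-104192050, + strand): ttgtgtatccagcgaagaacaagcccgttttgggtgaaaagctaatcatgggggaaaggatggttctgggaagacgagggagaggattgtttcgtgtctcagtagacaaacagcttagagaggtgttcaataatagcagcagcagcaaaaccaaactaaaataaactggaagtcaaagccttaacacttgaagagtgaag
The summit of Eng peak 12, in intron 1 of the gene, had 4 ETS matches, which start at bases 5, 17, 116 and 125 of the window. That of Cdh5 peak 4, also in intron 1, had 3 ETS matches, a GATA match and an AP-1 match. In Cdh5 the GATA match at base 71 shares letters with the ETS match at base 75, and the ETS match at base 117 shares its last letter with the AP-1 match at base 122. The windows of Tek peak 8, Cd34 peak 8 and Cdh5 peak 11 held none of these letters.

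Promoter sequence from 250 bases before to 50 bases after the start site, taken from RefSeq (GRCm38.p6) on the strand of the gene, is shown for a gene with no peak near it (Kdr), a gene with peaks in its body and none at its promoter (Tek) and a gene with promoter peaks (Eng). The table of promoters held 8 of the 10 genes, without Pecam1 and Cdh5.
Kdr promoter (chr5:75978406-75978705, - strand): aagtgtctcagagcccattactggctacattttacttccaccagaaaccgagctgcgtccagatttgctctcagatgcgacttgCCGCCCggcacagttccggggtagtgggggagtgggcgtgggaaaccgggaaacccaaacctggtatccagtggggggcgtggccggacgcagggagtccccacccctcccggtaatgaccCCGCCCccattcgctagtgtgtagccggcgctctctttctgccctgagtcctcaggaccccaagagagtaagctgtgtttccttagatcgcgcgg
Tek promoter (chr4:94739039-94739338, + strand): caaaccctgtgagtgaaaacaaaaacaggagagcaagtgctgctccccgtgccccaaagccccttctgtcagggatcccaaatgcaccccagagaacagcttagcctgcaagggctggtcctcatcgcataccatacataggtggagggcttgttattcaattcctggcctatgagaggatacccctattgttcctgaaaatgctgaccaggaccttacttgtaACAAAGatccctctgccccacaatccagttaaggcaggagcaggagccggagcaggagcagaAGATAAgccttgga
Eng promoter (chr2:32646345-32646644, + strand): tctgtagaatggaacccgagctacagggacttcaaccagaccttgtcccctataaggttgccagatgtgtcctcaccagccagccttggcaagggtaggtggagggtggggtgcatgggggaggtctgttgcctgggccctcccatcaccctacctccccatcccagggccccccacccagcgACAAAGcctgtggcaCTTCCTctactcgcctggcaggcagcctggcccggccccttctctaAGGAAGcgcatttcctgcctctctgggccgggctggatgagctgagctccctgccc
The Kdr promoter held 19 CpG dinucleotides and 2 KLF/SP matches, at bases 85 and 206. The Tek promoter held 3 CpG and the Eng promoter 6, where the median of the table was 7. The Tek promoter had a SOX match at base 225 and a GATA match at base 287, and the Eng promoter a SOX match at base 184 and ETS matches at bases 199 and 245. A match is a description of the letters and not a bound site.

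Across the 10 genes, promoter peaks were found at Eng, Cd34 and Nrp1, which is 3 of 10 genes (30%, Wilson 95% interval 10.8 to 60.3%) beside 45.6% of coding genes. Gene body peaks were found at 6 of 10, beside 33.2% of coding genes. They were the same 3 genes and Tek, Pecam1 and Cdh5, whose start sites had no peak. A gene body peak without a promoter peak was thus the state of 3 of the 10 genes, beside 8.27% of coding genes. Kdr, Flt1, Flt4 and Tie1 had neither. The 33.2% and the 8.27% do not allow for gene length. Among coding genes of like length, a gene body peak was found in 35.1% (Tie1 and Cd34) to 70.9% (Flt1, Nrp1 and Tek). The share was 46.5% for Eng, 54.1% for Kdr, Flt4 and Cdh5, and 65.3% for Pecam1. At least 1 peak in the gene or within 50 kb was found at 9 of 10, beside 77.9% of coding genes, and the exception was Kdr. With 10 genes and 1 library these shares are descriptions.

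Of the 158 peaks, 11 were promoter peaks, 72 gene body peaks and 75 flank peaks, and 26 of the flank peaks lay at the promoter of another gene. Eng had 43, Cd34 had 33 and Nrp1 had 22, which together made 98 of the 158 peaks (62.0%). The 7 genes without a promoter peak held 60 peaks, of which 21 were in a gene body. Of the gene body summits 68 lay in introns and 4 in exons. The map of peaks by distance from the start site shows each peak with its fold.

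**Figure D1:**
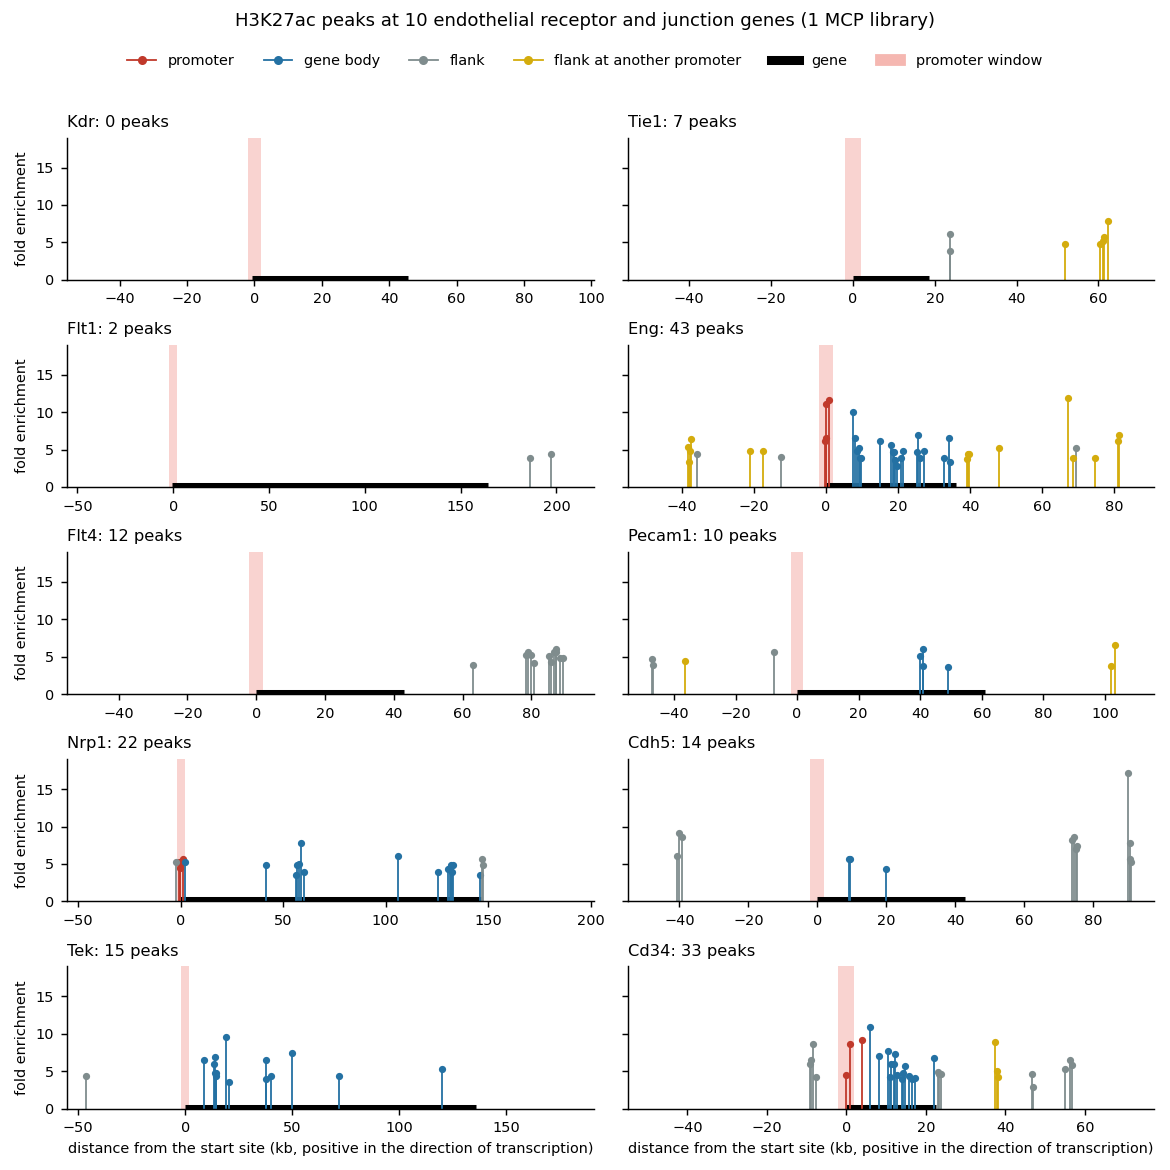
Position and strength of the 158 H3K27ac peaks at the 10 genes in 1 MCP library. Each panel is a gene, the x axis is the distance of the summit from the start site in kb in the direction of transcription, the y axis is the fold enrichment over the local background, the black bar is the gene and the pink band the promoter window of 2 kb on either side. Kdr had no peak in its panel, the 14 gene body peaks of Tek all lay 8.66 kb or more downstream of the start site, and the strongest peak, with a fold of 17.2, lay 90.3 kb downstream of the Cdh5 start site.

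By density, Eng stood at 31.6 peaks per 100 kb of the gene and its flanks, Cd34 at 26.9, Cdh5 at 9.80, Nrp1 at 8.91, Flt4 at 8.39, Tek at 6.36, Pecam1 at 6.21, Tie1 at 5.90, Flt1 at 0.755 and Kdr at 0. The median of the 10 genes was 7.37, and that of all coding genes was 5.62 (quartiles 0.901 and 12.5). Only Eng (percentile 97.2) and Cd34 (percentile 95.4) lay above the upper quartile of coding genes, and only Kdr and Flt1 lay below the lower quartile. The 6 genes from Cdh5 to Tie1 followed each other closely, and with 1 library their order has no error to be judged by. Among the genes of its own chromosome Eng was at percentile 97.5, Cd34 at 91.4, Cdh5 at 66.9, Nrp1 at 63.4, Tek at 54.7 and Tie1 at 52.1. Chromosome 11 carried 7.94 peaks per 100 kb, the highest of all chromosomes, and among its genes Flt4 was at percentile 39.6 and Pecam1 at 31.8, where they were at 61.6 and 52.7 among all coding genes. No gene was named for a pattern like that of the 10 genes, since 1 library holds no pattern across samples.

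**Figure D2:**
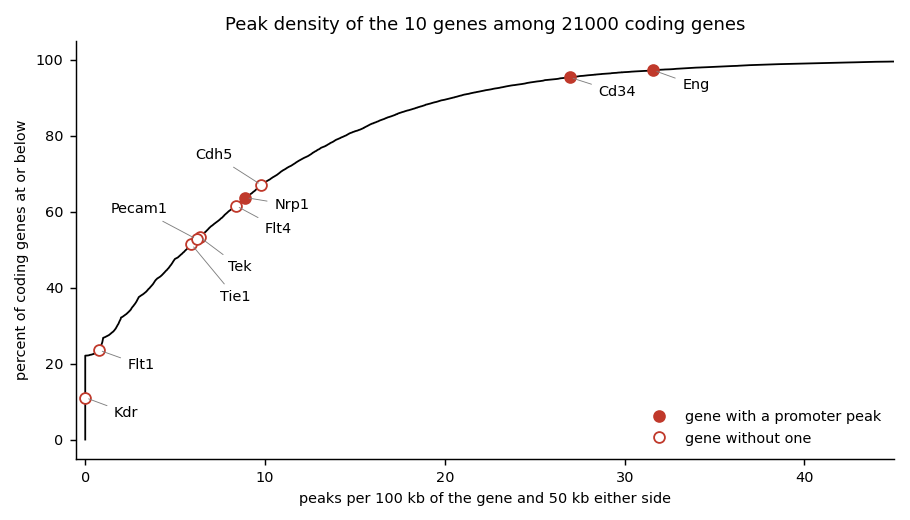
Peak density of the 10 genes among 21000 protein-coding genes. The x axis is the number of peaks per 100 kb of the gene and 50 kb on either side, the y axis is the percent of coding genes at or below that density (a point within a tie stands at its middle), the black line is all coding genes, and filled points have a promoter peak. Eng at 31.6 and Cd34 at 26.9 stood apart from the other 8 genes, which had 9.80 or fewer.

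The VEGF receptor kinases had no peak at their promoters or in their bodies. Kdr (VEGFR-2, gene 16542, chr5:75932827-75979072, - strand) is the main signaling receptor for VEGF-A, and no peak was called in it or within 50 kb. The nearest summit lay 163 kb from its start site, and the start site sat in a stretch of 824 kb without a peak, between peaks that ended at 75316574 and began at 76140858 on chromosome 5. These 2 peaks carry successive numbers in the list, so none was left out between them. The start region of Kdr is rich in CpG, with 60 CpG dinucleotides within 500 bp on either side, and 67.8% of the coding genes with a like CpG number had a promoter peak.

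Flt1 (VEGFR-1, gene 14254, chr5:147561604-147726438, - strand) binds VEGF-A tightly and signals weakly. Its 165 kb of sequence held no peak. The 2 peaks within 50 kb lay 186 and 197 kb downstream of the start site, in introns 17 and 12 of the neighbor Pan3, and were weak, with folds of 3.93 and 4.36 and 8 and 9 fragments. The nearest summit to the start site lay 52.7 kb away, outside the region counted, and the stretch without a peak around the start site was 239 kb. With 100 CpG within 500 bp, Flt1 belonged to the most CpG-rich group of coding genes, of which 73.1% had a promoter peak.

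Flt4 (VEGFR-3, gene 14257, chr11:49609679-49652739, + strand) is the receptor for VEGF-C and VEGF-D and is best known from lymphatic endothelium. It too had no peak of its own, in a stretch of 413 kb without one around its start site. All 12 of its flank peaks lay in the downstream gene Cnot6, 11 in introns and 1 in an exon, 63.1 to 89.2 kb from the Flt4 start site. Their folds ran from 3.85 to 6.08 and their fragments from 10 to 15. Of these, 9 lay in Cnot6 intron 2 within 9.45 kb, and the widest, Flt4 peak 10 (chr11:49696786-49697589), was 804 bp wide with a fold of 6.08 and 13 fragments (exact Poisson 95% interval 6.92 to 22.2). Flt4 had 76 CpG within 500 bp, and 70.7% of coding genes with a like number had a promoter peak. All 3 VEGF receptor kinases thus had CpG-rich start sites without a called peak. By gene length, 54.1% of coding genes like Kdr and Flt4 and 70.9% of those like Flt1 had a gene body peak.

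Nrp1 (gene 18186, chr8:128358591-128505476, + strand), the co-receptor of VEGF and of semaphorins, differed from the 3 kinases by having peaks at its start site and along its body. It had 4 promoter peaks, 15 gene body peaks and 3 flank peaks. The promoter peaks had their summits 0.764, 0.558 and 0.21 kb upstream and 1.15 kb downstream of the start site, with folds of 5.31, 5.00, 4.40 and 5.65 and 18, 16, 12 and 12 fragments. Each of the 4 also lay within 2 kb of the start site of the microRNA gene Mir1903, so its promoter and that of Nrp1 cannot be told apart there. Little of the Nrp1 promoter window was covered. Its best fold of 5.65 was at percentile 25.3 among coding genes with a promoter peak, and its peaks covered 14.3% of the window, beside 47.3% at Eng and 43.2% at Cd34.

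In the body of Nrp1 the peaks lay in groups. In intron 2, 4 peaks stood within 3.17 kb at 56.2 to 58.5 kb from the start site, with folds of 3.50 to 7.80. The strongest and widest was Nrp1 peak 11 (chr8:128417218-128418395), with 1178 bp, a fold of 7.80 and 17 fragments (9.90 to 27.2), which is the peak with 2 E-box matches, 1 SOX match and 1 ETS match shown above. A group of 5 in intron 12, at 131 to 133 kb, was weaker, with folds of 3.93 to 4.79. The strongest of the 3 flank peaks was just past the gene end, with a fold of 5.65 and 12 fragments.

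Tek (TIE2, gene 21687, chr4:94739086-94874976, + strand), the receptor for angiopoietins, had no promoter peak but 14 gene body peaks. The nearest summit to its start site lay 8.66 kb downstream of it. Its start region held 19 CpG within 500 bp, and 27.9% of coding genes with a like number had a promoter peak. Among the 1277 coding genes with at least as many gene body peaks, 201 (15.7%) had no promoter peak.

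Of the 14 peaks of Tek, 11 lay in intron 1, which makes up 30.3% of the gene (41.1 kb). The first stood alone 8.66 kb from the start site with a fold of 6.51 and 14 fragments. A group of 5 peaks followed within 1.50 kb at 13.2 to 14.6 kb, with folds of 4.36 to 6.94 and 9 to 15 fragments. Tek peak 8 (chr4:94758172-94759415) lay at 19.2 kb and was the strongest and widest of the gene, with 1244 bp, a fold of 9.53 and 21 fragments (13.0 to 32.1), which put it at percentile 94.4 of all peaks by fold. Its interval overlapped that of the peak with 16 fragments in intron 2, 49.9 kb from the start site, which had a fold of 7.37. A further group, of 3 peaks, lay at the far end of intron 1, 37.5 to 40.1 kb from the start site. The peaks in introns 6 and 17 had folds of 4.36 and 5.22. The flank peak of Tek, in an exon of Ift74, had a fold of 4.36 and 9 fragments.

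Tie1 (gene 21846, chr4:118471191-118489849, - strand), an orphan receptor that modulates Tek, had no peak in its promoter or body. Its 7 flank peaks all lay downstream, 4 at the promoter of Elovl1, 1 at that of Cdc20 and 2 between genes, at 23.6 and 23.8 kb from the Tie1 start site. The strongest, at Elovl1, had a fold of 7.80 and 17 fragments (9.90 to 27.2), and the 2 between genes had folds of 6.08 and 3.87. The stretch without a peak around the start site was 155 kb. With 14 CpG within 500 bp, Tie1 was in a group of which 17.5% had a promoter peak, and by its length it was in a group of which 35.1% had a gene body peak.

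Eng (endoglin, gene 13805, chr2:32646595-32682669, + strand) had the most peaks of the 10 genes and the strongest promoter peaks. Its 4 promoter summits lay 0.318 and 0.126 kb upstream and 0.098 and 0.763 kb downstream of the start site, with folds of 6.10, 11.1, 6.53 and 11.7 and 16, 27, 21 and 26 fragments. The intervals of the first (9.15 to 26.0 fragments) and the second (17.8 to 39.3) overlapped. Eng peak 12 (chr2:32646971-32648505), with the 4 ETS matches, was 1535 bp wide, and its fold of 11.7 was at percentile 90.0 among the best promoter peaks of coding genes. Eng had 35 CpG within 500 bp, and 49.6% of coding genes with a like number had a promoter peak.

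The body of Eng held 21 peaks in 36.1 kb. In intron 1, 6 peaks stood 7.58 to 9.76 kb from the start site, and the first of them, 723 bp wide with a fold of 9.96 and 22 fragments (13.8 to 33.3), was the strongest of the body. It lay within 2 kb of the start site of Mir1954, a microRNA gene inside Eng. Intron 2 held 8 peaks with folds of 2.85 to 6.08, and introns 4 to 13 held 7 with folds of 3.28 to 6.98. Some of the peaks in intron 2 rose from a higher background. The peak with the lowest fold there, 2.85, had 15 fragments over a background of 4.00, where the lowest background in the list was 1.05. Backgrounds are given at the depth of the IgG library, where each H3K27ac fragment counts as 0.885.

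The flanks of Eng held 18 peaks, of which 15 lay at promoters of other genes. These were St6galnac6 with 4, Mir8093 with 3, Sh2d3c with 3, Ak1 with 2, Fpgs with 1, and Mir2861 and Mir3960 with 2, of which 1 was also at Cdk9. The strongest, at Cdk9, had a fold of 11.9 and 27 fragments (17.8 to 39.3), so its count was the same as that of the second Eng promoter peak. Counted over the gene body alone, Eng was at percentile 98.7 and Cd34 at 99.2 of coding genes by peaks per 100 kb.

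Pecam1 (CD31, gene 18613, chr11:106654213-106715281, - strand), a defining surface protein of endothelial junctions, had no promoter peak, 4 gene body peaks and 6 flank peaks. The body peaks were far from the start site, 3 in intron 13 at 39.9 to 41.0 kb and 1 in intron 14 at 49.0 kb. Pecam1 peak 5 (chr11:106674452-106674557) was the strongest, with a fold of 6.09 and 24 fragments (15.4 to 35.7), and its neighbors on either side had folds of 3.79 and 5.05 with 16 fragments each. The background under the 3 was 2.00 to 3.00 at the depth of the IgG library, above the lowest of the list. Their folds were thus lower than their fragments alone would give. The nearest summit to the start site lay 7.50 kb upstream between genes, in a peak of 604 bp with a fold of 5.64 and 18 fragments.

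The other flank peaks of Pecam1 lay at the promoter of Tex2 with folds of 6.51 and 3.79, at that of Milr1 with a fold of 4.46, and in an intron of Milr1 with folds of 3.87 and 4.71. The GENCODE annotation adds a Pecam1 start site 35.3 kb upstream of that of RefSeq, inside Milr1, and the peak at the Milr1 promoter lay 1.07 kb from it. By that annotation Pecam1 had a promoter peak too, which made 4 of 10 genes, and its longer span there raised the peaks in the gene or within 50 kb from 10 to 22. At its RefSeq start site Pecam1 had 13 CpG within 500 bp, the lowest number of the 10 genes, in the same group as Tie1 and Cdh5.

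Cdh5 (VE-cadherin, gene 12562, chr8:104101613-104144504, + strand), the cadherin of endothelial adherens junctions, had no promoter peak, 3 gene body peaks and 11 flank peaks, with median folds of 5.65 and 7.80. In the body, 2 peaks lay in intron 1 at 9.12 and 9.47 kb from the start site, each with a fold of 5.65 and 12 fragments (6.20 to 21.0), and 1 in intron 2 at 19.9 kb with a fold of 4.36 and 9 fragments. Cdh5 peak 4 (chr8:104110609-104110938), the wider of the first 2 with 330 bp, is the peak with the ETS, GATA and AP-1 letters. Cdh5 had 18 CpG within 500 bp, which is the border between groups of coding genes of which 17.5% and 27.9% had a promoter peak.

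Upstream of Cdh5, 3 peaks stood 39.4 to 40.8 kb from the start site with folds of 6.08 to 9.10 and 13 to 20 fragments. Downstream, 8 peaks lay in the neighbor Bean1, 4 in its intron 1 and 4 in its intron 3. Cdh5 peak 11 (chr8:104190785-104192162), in intron 3 of Bean1, was the strongest of all 158 peaks, with 1378 bp, a fold of 17.2 and 41 fragments (29.4 to 55.6), at percentile 99.8 of the whole list. Its interval lay above those of the 3 gene body peaks of Cdh5. It counts for Cdh5 by distance alone, and which gene it acts on was not tested. For this peak 41 was the nearest whole number and missed the tolerance of the recovery, as happened at no other of the 158 peaks.

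Cd34 (gene 12490, chr1:194938821-194961292, + strand) had the widest peaks. Its promoter peaks had summits 0.213 kb upstream and 0.798 and 3.83 kb downstream of the start site, with folds of 4.45, 8.59 and 9.10 and 19, 28 and 40 fragments. The third, Cd34 peak 7 (chr1:194940078-194943337), was 3260 bp wide, at percentile 99.9 of the list, with an interval of 28.6 to 54.5 fragments. It reached into the promoter window, although its summit was in intron 1 beyond it. Next to it, Cd34 peak 8 (chr1:194943443-194946365) was 2923 bp wide with a fold of 10.9 and 27 fragments (17.8 to 39.3) and was the strongest gene body peak of the 10 genes. Only 105 bp lay between these wide peaks, which together covered 6.18 kb, with their summits in intron 1, itself 8.79 kb long.

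Past intron 1, Cd34 held 13 more peaks from exon 3 to exon 8, 10.6 to 22.1 kb from the start site, with folds of 3.93 to 7.75. The flanks held 4 peaks upstream, 7.70 to 9.13 kb from the start site, with folds of 4.23 to 8.67 and 16 to 21 fragments, and 11 peaks downstream, of which 3 lay at the promoter and 3 in an intron of Gm16897. The strongest flank peak, at Gm16897, had a fold of 8.93 and 20 fragments. Cd34 had 32 CpG within 500 bp, which is the border between groups of coding genes of which 27.9% and 49.6% had a promoter peak.

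The plot of promoter peaks by CpG number sets the 10 genes beside coding genes of like start regions. The 4 genes with more than 46 CpG were Kdr, Flt1, Flt4 and Nrp1, and 1 of them, Nrp1, had a promoter peak. The 4 genes with fewer than 20 CpG were Tek, Tie1, Pecam1 and Cdh5, and none had a promoter peak. Eng and Cd34 lay between with 35 and 32.

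**Figure D3:**
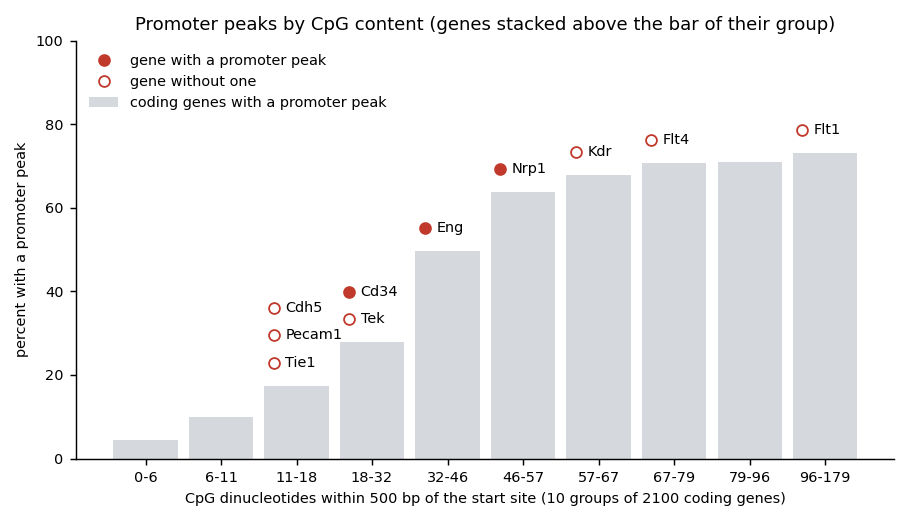
Promoter peaks by CpG number of the start region. The x axis is the number of CpG dinucleotides within 500 bp of the start site in 10 groups of 2100 coding genes, bars are the percent of each group with a promoter peak, and points stacked above a bar are the genes of this group, filled where they had a promoter peak (their height has no meaning). Kdr, Flt4 and Flt1 stood without a promoter peak over groups where 67.8%, 70.7% and 73.1% of genes had one. Cd34, with 32 CpG, and Cdh5, with 18, were tied at a group border and stand over the lower group.

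By strength, the 11 promoter peaks had a median fold of 6.10 (range 4.40 to 11.7) and 19 fragments, the 72 gene body peaks a median fold of 4.79 (2.85 to 10.9) and 11.5 fragments, and the 75 flank peaks a median fold of 5.22 (2.90 to 17.2) and 12 fragments. In the whole list promoter peaks had a median fold of 5.49 and all others 5.11. At the 10 genes 140 of 158 peaks had fewer than 20 fragments, which is the state of 84.4% of the list. Of the 18 with 20 or more, 7 were at Eng and 5 at Cd34, and the others were at Cdh5, Pecam1, Tek and Tie1. Of the 7 genes without a promoter peak, Tek and Pecam1 alone had a gene body peak at or above 20 fragments. Peaks of at least 1000 bp numbered 7 of the 158, with 2 each at Cd34 and Eng and 1 each at Cdh5, Tek and Nrp1. In the whole list 4.74% of peaks were of at least this width.

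**Figure D4:**
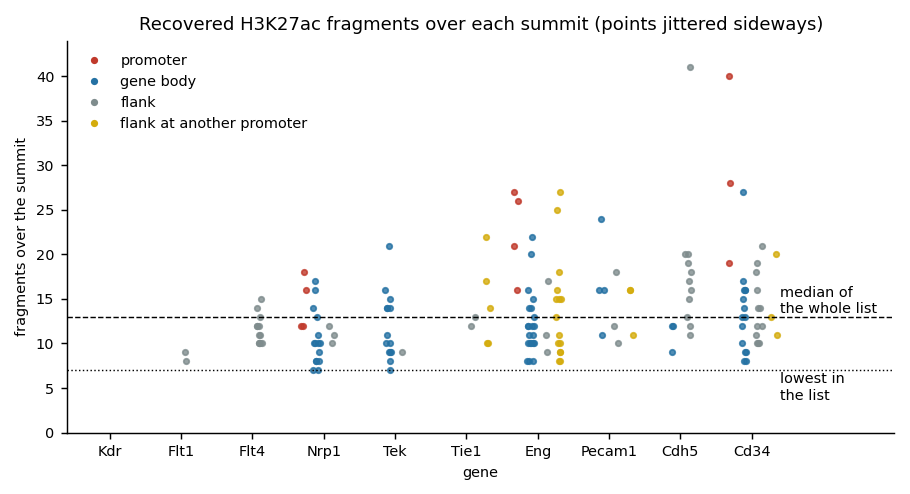
Fragments over the summit of each of the 158 peaks, as recovered from the list. The x axis is the gene, with points jittered sideways, the y axis is the number of H3K27ac fragments over the summit, colors give the class, the dashed line is the median of the whole list (13) and the dotted line the fewest fragments at any peak of the list (7). Most points lie below 20, and the highest are 41 near Cdh5 and 40 at the promoter of Cd34.

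Motif letters in the 200 bases about the summits were counted at the 10 genes, in the whole list and in promoters. ETS letters lay in 44 of the 158 windows (27.8%), beside 25.0% of all peaks and 35.4% of all 32851 RefSeq promoters of 300 bases. E-box letters lay in 18 (11.4%), beside 9.97% of all peaks and 16.3% of promoters. SOX letters lay in 28 (17.7%), beside 17.7% and 18.7%. GATA letters lay in 10 (6.33%), beside 11.1% and 11.2%, and AP-1 letters in 9 (5.70%), beside 7.99% and 7.81%. KLF/SP letters lay in 8 (5.06%), beside 4.12% and 35.7%, and forkhead letters in 2 (1.27%), beside 3.25% and 3.65%. Letters of the PAX dimer lay in 0, beside 0.435% and 0.487%. The promoters, at 300 bases, have more places for a match than windows of 200 bases, so their shares are not like for like. Peaks of a gene are neighbors, so these shares are descriptions with no test.

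Other genes of the same pathways were counted for promoter peaks. Of 8 VEGF and angiopoietin ligands 2 had one, Vegfc and Vegfd, each with a best fold of 7.37, so promoter peaks were called at the ligands of Flt4 and not at the receptor. Vegfa, the ligand of Kdr and Flt1, had no peak within 50 kb. Of 9 partner receptors 5 had one (Nrp2, Bmpr2, Tgfbr2, Plxnd1 and Unc5b), and Robo4, Ptprb, Acvrl1 and S1pr1 had none. Of 14 junction and surface partners 6 had one (F11r, Icam2, Ctnnd1, Ctnnb1, Jup and Tjp1). Those without one were Cldn5, Esam, Jam2, Jam3, Emcn, Mcam, Podxl and Podxl2. The strongest were at Bmpr2, a BMP receptor, with a fold of 13.9, F11r, a junction protein shared with epithelium, with 13.4, and Ctnnd1, the p120 catenin that binds cadherins, with 13.0. In all 13 of 31 had a promoter peak (41.9%, Wilson 95% interval 26.4 to 59.2%), beside 45.6% of coding genes, and 2 of 31, Vegfa and Jam3, had no peak within 50 kb.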

How the data were processed

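H3K27ac was measured by CUT&RUN in nuclei of sorted live cells from mouse FP-RMS tumors, and samples were grouped by the model and antibody in their titles. The methods of the study name bowtie (1.2.2) to mm10, filters on reads from problematic regions and from an amplified stretch beside Col19a1, and calling against the matching IgG library. The submitters' processing notes name BWA, SAMtools and MACS2, and the methods an older release of MACS, so which threshold made the list is unclear (largest q 0.0471).

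The authors' list gives each peak a score, which was the whole part of 10 times -log10 q. The deposited fold is the caller's ratio of pileup to expected background at the summit, after a constant is added to each. The pileup is the fragments times the scale given below, and the background is on the scale of the pileup. A fold is therefore lower than the plain ratio of fragments to background. The deposited -log10 p served to recover fragments, and the -log10 q only to describe or filter peaks. The list was matched to its library by the number in its peak names. Of 122959 peak numbers 584 are absent from the list, none of them at the 10 genes.

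Fragments over each summit were solved from fold and p with a scale of 0.885 (H3K27ac library 1.13 times as deep as IgG). A whole number solved both columns, within 0.001 of -log10 p, in 99.8% of peaks, and in 0.0147% with a scale 3% off. The total depth is unknown. Intervals on fragments (exact Poisson) and shares (Wilson), both 95%, cover counting error only.

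A peak counted for a gene on an overlap of at least 1 bp. Backgrounds were taken over 21000 protein-coding genes, in 10 equal groups for CpG and length. Motifs were searched on both strands. The 10 genes were described by their strongest peak by fold in each class and their widest peak, neighbors were named where flank peaks lay at their promoters (Pan3, Cnot6, Bean1 and Ift74, whose introns or exons held flank peaks, were named after values were seen), and of the other endothelial genes the 3 with the strongest promoter peak were named. Further genes of those lists and of the marker lists were named after their values were seen. The 10 genes and all lists were chosen with earlier results of these data known. Scripts used python 3.11.15, numpy 2.4.6, pandas 2.3.3 and scipy 1.17.1, and were tested on simulated data. Alternatives changed the promoter window, peak threshold, overlap, flank and annotation.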

Additional observations from a re-analysis of the deposited data

How the results depend on the processing

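The count of genes with a promoter peak was 3 (Nrp1, Eng and Cd34) under each alternative but 2. Among the strongest 25% of the list it was 2, without Nrp1, and with GENCODE genes it was 4, with Pecam1 added. The other counts depended on the threshold and the flank. With a -log10 q of at least 5 there were 73 peaks at the 10 genes, of which 28 were in a gene body, and among the strongest 25% of the list there were 32 and 12, where the list as deposited gave 158 and 72. With a flank of 10 kb there were 99 peaks and with 100 kb there were 237, and Kdr had 0 in both. Promoter windows of 1 and 5 kb, a summit within the region, and an overlap of a larger part of the peak left the gene body count between 70 and 74. Of the values for single genes, 160 stayed within 1.5 times the value reported and 30 did not. Many of the 160 could not change. A promoter count does not depend on the flank, and the total of a gene does not depend on a promoter window inside it. Counts of 0 that stayed 0 were also among the 160.

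No paired analysis was possible because a single library was used and no test was made. Depth limits the list to summits with at least 7 fragments, so a region without a peak was not shown to lack the mark, and most folds reported rest on fewer than 20 fragments. With 1 library, none of the counts has a replicate error.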
